A study of Oreochromis niloticus with 5 samples.

Results

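The genes described here are gadd45ga and gadd45gb.1, annotated copies of gadd45g in Nile tilapia (Oreochromis niloticus), measured in fast muscle. They were chosen by their identifiers, rna34377 for gadd45ga and rna18171 for gadd45gb.1, and make up 2 of the 42563 genes to which the 80416 listed features could be assigned. Fast (white) muscle RNA came from 5 male full siblings, named M1 to M5, with 1 library per fish, no treatment, and an age of 5 months in the sample labels, although the methods of the study give a longer rearing period. The RNA was depleted of ribosomal RNA before directional libraries were made, and the total counts ranged from 26750559 in M1 to 90337019 in M2, with a median of 36731226. These totals add up counts over listed features, of which a fragment could match more than 1. They are therefore larger than the numbers of assigned fragments that the study reports. All fish belong to 1 family and 1 condition, so the spread between them is that of untreated siblings, and the data hold a contrast between genes and between fish but none between groups. The levels are given as a description without a test, since the gene pair was chosen for this pattern.

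GADD45 proteins are small nuclear proteins named for their induction by growth arrest and DNA damage. They have no catalytic activity of their own and act by binding partners. In mammals these include the kinase MAP3K4, which starts the p38 and JNK stress cascades, the cell-cycle inhibitor p21 and the replication clamp PCNA. In zebrafish, Xenopus and mammals, GADD45 proteins have also been linked to active removal of methyl groups from DNA, in which TET enzymes first oxidise 5-methylcytosine to 5-hydroxymethylcytosine. Teleosts hold additional copies of many genes from an ancient genome duplication, and the letters a and b in their symbols usually mark such copies.

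On the assembly O_niloticus_UMD_NMBU, gadd45ga lies on the plus strand of linkage group 12 from 23405443 to 23406981. Its annotated transcript has 4 exons of 161, 102, 211 and 680 bases, which add up to 1154 bases, and introns of 119, 123 and 143 bases. gadd45gb.1 lies on the plus strand of linkage group 7 from 31901878 to 31903459. Its transcript has 3 exons of 229, 208 and 919 bases, in total 1356 bases, and introns of 114 and 112 bases. Each gene is thus compact, is listed with 1 feature only, and overlaps 0 other listed features on either strand.

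gadd45ga was among the abundant transcripts of fast muscle, and gadd45gb.1 received no count in any fish. The raw counts of gadd45ga were 9943 in M4, 26332 in M2, 5898 in M1, 5430 in M5 and 3035 in M3. The raw count of gadd45gb.1 was 0 in each of the 5 libraries. The groups of values therefore lay far apart, and the lowest gadd45ga count came from M3 and not from the shallowest library, M1.

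For a comparison between genes of unequal length, TPM values were computed, in which counts are divided by the exon length and each library is scaled to the same sum. Fragments that matched several features enter this sum repeatedly. With each fragment counted once, the TPM values and limits of both genes would be higher. gadd45ga had 597 TPM in M4, 606 TPM in M2, 457 TPM in M1, 280 TPM in M5 and 179 TPM in M3, with a mean of 424 ± 190 TPM (SD, n = 5). It ranked 160 of 42563 genes by mean TPM, and 194 by mean normalized count. Where 0 were counted, the limit was set at 3 counts per library, the one-sided 95% limit of a Poisson count of 0, which for gadd45gb.1 corresponds to 0.153 TPM in M4, 0.0588 TPM in M2, 0.198 TPM in M1, 0.132 TPM in M5 and 0.151 TPM in M3. The limit was lowest in M2, the deepest library, and highest in M1, the shallowest. The libraries were amplified by PCR and carry no molecular identifiers, so reads are not independent molecules, and these limits and the intervals given for gadd45ga cover counting error only.

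With the floor of 3 counts per library, the TPM of gadd45ga was at least 1189-fold higher than that of gadd45gb.1 in M3, where the bound was lowest. The bound was at least 2127-fold in M5, 2310-fold in M1, 3894-fold in M4 and 10314-fold in M2. With the floor applied once to the counts of all 5 fish together, gadd45ga was at least 19834-fold higher per length. The differences between the bounds follow from the counts of gadd45ga and from depth, as gadd45gb.1 contributed the same 3 counts in each library, and they say nothing about the level of gadd45gb.1.

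**Figure D1:**
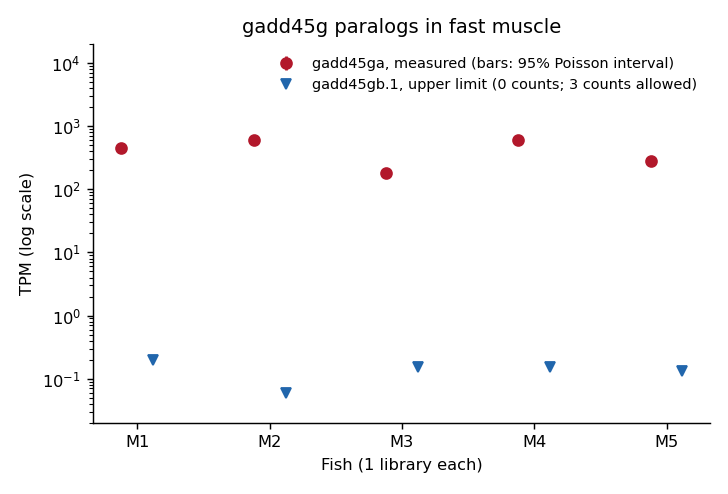
TPM of gadd45ga (red circles, with 95% Poisson intervals that are mostly smaller than the symbols) and the upper limit for gadd45gb.1 (blue triangles, 3 counts in a library where 0 were counted) in the 5 fish, on a log axis. The gadd45ga values lie between 179 and 606 TPM, and each limit for gadd45gb.1 is at or below 0.198 TPM.

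A count of 0 in each fish was frequent in this table. It applied to 24787 of the 80416 listed features (30.8%), to 17089 of the 42563 genes (40.1%) and to 7422 of 29501 protein-coding genes (25.2%). Expression of gadd45gb.1 below its limit, 0.0588 TPM in the deepest library, is not excluded by the count of 0. Only primary alignments were counted, and the sequence identity of the paralogs was not measured here.

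The order of the fish was then described with normalized counts, which are raw counts over the size factor of each library (median of ratios). For gadd45ga they were 12014 in M4, 11952 in M2, 9710 in M1, 5412 in M5 and 3288 in M3, with a mean of 8475 ± 3950 (SD, n = 5). From high to low the order was M4, M2, M1, M5 and M3, and the highest fish had 3.65 times the normalized count of the lowest. M4, M2 and M1 were on the high side, and M5 and M3 on the low side. In the study, M1 had by far the lowest overall alignment rate and the lowest share of assigned fragments. Whether this bears on the place of M1 was not tested. The step between M1 and M5 was the widest in relative terms, at 1.79-fold, followed by 1.65-fold between M5 and M3 and 1.23-fold between M2 and M1.

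M4 and M2 could not be placed in order. Their normalized counts differed by 1.01-fold, and their 95% Poisson intervals of 11779 to 12252 in M4 and 11808 to 12097 in M2 overlapped. With TMM factors M2 stood above M4, at 12145 against 11974 normalized counts, and M2 was also above M4 in TPM. The intervals of the other 3 neighbouring pairs of fish did not overlap. These intervals hold the counting error of 1 library per fish, and no fish was sampled more than once, so variation within a fish is unknown. The other 9 of the 10 pairs of fish kept their order with TMM factors.

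**Figure D2:**
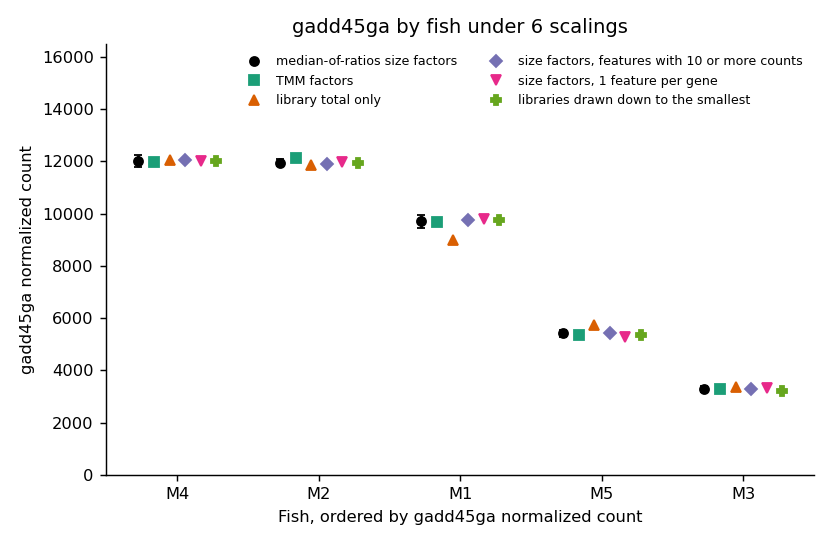
Normalized count of gadd45ga in each fish (fish ordered from high to low, linear axis from 0) under 6 ways of scaling the libraries, with 95% Poisson intervals on the black points. M4 and M2 lie close together under each scaling and change places with TMM factors, whereas M1, M5 and M3 keep their places.

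The spread of gadd45ga between siblings was wide among the genes measured. The SD of its log2(normalized count + 1) was 0.82, whereas counting error alone would give 0.0185. Across 7207 genes with a normalized count averaging at least 100, the median SD was 0.27, and 94.9% of the genes had a smaller SD than gadd45ga. The value depended on M3, without which the SD was 0.54. On the regularized log scale, which shrinks values towards their mean, it was 0.53.

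The other GADD45 genes found by symbol were gadd45aa on linkage group 18 and gadd45ab on linkage group 23. Family members annotated without a gadd45 symbol would have been missed. gadd45aa had 31.3 TPM in M4, 25.6 TPM in M2, 20.5 TPM in M1, 1.26 TPM in M5 and 10.04 TPM in M3, with a mean of 17.7 ± 12.1 TPM (SD, n = 5). gadd45ab averaged 3.21 ± 1.54 TPM (SD, n = 5). gadd45ga had the higher TPM in 5 of 5 fish, by 17.9-fold to 223-fold over gadd45aa and by 85.0-fold to 245-fold over gadd45ab. Of the summed TPM of the 4 GADD45 genes found by symbol, gadd45ga made up between 93.7% in M3 and 99.1% in M5. The mean share was 95.5% ± 2.15 (SD, n = 5). The order by mean TPM was thus gadd45ga, gadd45aa, gadd45ab and gadd45gb.1; gadd45aa and gadd45ab came close to each other in M5, at 1.26 and 1.14 TPM.

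gadd45ga and gadd45aa differed in which fish was lowest. In normalized counts gadd45aa had 800 in M4, 642 in M2, 553 in M1, 30.9 in M5 and 234 in M3. The high fish were M4, M2 and M1, as for gadd45ga, but the lowest was M5, where the next lowest fish had 7.57 times its level. gadd45ab was also lowest in M5, with 17.9 normalized counts from 18 raw counts, and the next lowest fish had 1.75 times that level. That next fish was M3, with 29 raw counts, so the lowest fish of gadd45ab rests on few counts and is uncertain. gadd45ga was lowest in M3 instead, and M5 had 1.65 times the level of M3. The SD of log2 values was 0.82 for gadd45ga, 1.91 for gadd45aa and 0.89 for gadd45ab.

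gadd45gip1, on linkage group 4, encodes a protein that binds GADD45 proteins and is also part of the mitochondrial ribosome, and is not a paralog. It averaged 223 ± 39.4 normalized counts (SD, n = 5), with 254 in M4, 172 in M2, 270 in M1, 204 in M5 and 216 in M3. Its fish order was not that of gadd45ga, and its SD of log2 values, 0.26, was close to the median of the 7207 genes. The TPM of gadd45ga was 12.7-fold to 58.2-fold higher than that of gadd45gip1.

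Immediate early genes, which encode transcription factors such as FOS, JUN, EGR1 and ATF3 made within minutes of a stimulus, were examined together with other stress genes, as GADD45 genes are induced by some of the same stimuli. Of 15 genes of the list, 13 had a normalized count averaging at least 10, here called detected, and 12 of at least 100. The listed jund was not matched by symbol. Over all genes, 13715 of 42563 (32.2%) had a mean of at least 10, and 7207 had one of at least 100. Of the 12 list genes with a mean of at least 100, 9 were highest in M4, where 17.2% of 7206 genes had their highest value. M4 and M2 were the fish with the highest normalized counts of gadd45ga. Of the same 12 genes, 10 were lowest in M5 and 2 in M3, against 21.1% and 19.8% of all genes. Among the 10, M5 was close to the next lowest fish in fosb, at 330 against 331 in M2. In jun it was at 738 against 791 in M3. None (0 of 12) had the fish order of gadd45ga with M4 above M2, which 54 of the 7206 genes (0.749%) had. M4 and M2 of gadd45ga could not be placed in order, and ddit4 had its order with M4 and M2 exchanged. The share of all genes with that exchanged order was not counted. The order of gadd45aa was M4, M2, M1, M3 and M5. It was found for 8 of the 12, including jun, compared with 84 of the 7206 genes (1.17%). Genes of this kind respond together, so the 12 are not independent observations, and no test was made.

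jun, a subunit of the transcription factor AP-1, had 7610 normalized counts in M4, 5636 in M2, 4345 in M1, 738 in M5 and 791 in M3. atf3, a transcriptional regulator of the stress response, had 7029 in M4, 3969 in M2, 2135 in M1, 427 in M5 and 576 in M3. In both genes, named after their values were seen, M3 and M5 were the low fish, and in jun they were close to each other. The highest fish had 3.65 times the level of the lowest for gadd45ga, against 10.3 times for jun and 16.5 times for atf3. fosb, which encodes another AP-1 subunit, departed from the others and was highest in M3, at 1313 normalized counts. ddit3, encoding the stress factor CHOP, had the highest mean TPM of the list, 112, and egr2b had the lowest among those detected, 1.01, so that the 424 TPM of gadd45ga lay above the whole list. ddit3 and ddit4, also DNA-damage-inducible genes, were lowest in M3 as gadd45ga was, at 2860 and 820 normalized counts, and each was highest in M2. The order of ddit3 was M2, M1, M5, M4 and M3, and so differed from that of gadd45ga. M4 had 3284 normalized counts of ddit3, below 4064 in M5. The highest fish had 1.61 times the level of the lowest for ddit3 and 1.70 times for ddit4. The order of ddit4, M2, M4, M1, M5 and M3, was that of gadd45ga with M2 and M4 exchanged. With TMM factors gadd45ga itself had this order.

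**Figure D3:**
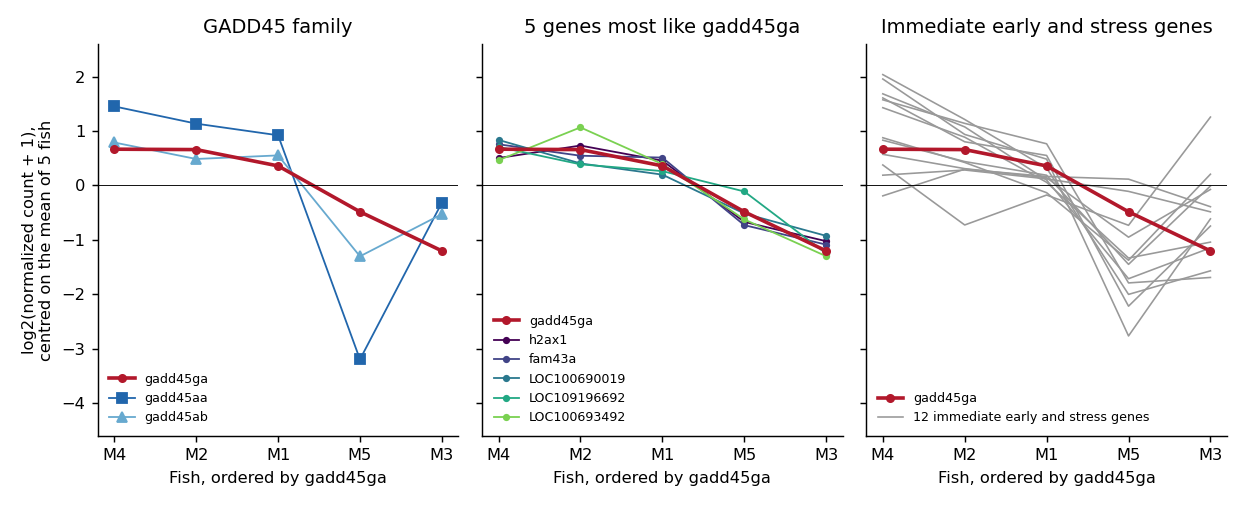
log2(normalized count + 1), centred on the mean of the 5 fish, for gadd45ga (red) with gadd45aa and gadd45ab (left), the 5 genes most like gadd45ga (middle) and 12 immediate early and stress genes (right), with fish ordered by gadd45ga. gadd45ga is lowest in M3, whereas gadd45aa, gadd45ab and 10 of the 12 genes on the right are lowest in M5. For gadd45ab this rests on 18 raw counts in M5 and 29 in M3. For fosb and jun, M5 is close to the next lowest fish.

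The genes whose pattern over the 5 fish was most like that of gadd45ga were sought among 7206 genes with a normalized count averaging at least 100, by the root mean square difference of the centred log2 values. The median difference over these genes was 0.79, and 10 genes were under 0.25. The closest was h2ax1 on linkage group 10, a gene for the histone variant H2AX that is phosphorylated at DNA breaks, with a difference of 0.15. h2ax1 had 874 normalized counts in M4, 1024 in M2, 845 in M1, 387 in M5 and 302 in M3. Its high and low fish were those of gadd45ga, with M2 and M4 exchanged.

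The next 4 genes were fam43a on linkage group 15, LOC100690019 on linkage group 1, LOC109196692 on linkage group 3 and LOC100693492 on linkage group 10, with differences of 0.15, 0.20, 0.21 and 0.22. fam43a had 178 normalized counts in M4, 153 in M2, 150 in M1, 62.8 in M5 and 48.8 in M3. The 5 genes were lowest in M3 and second lowest in M5, and fam43a, LOC100690019 and LOC109196692 had the order of gadd45ga with M4 above M2. Counting intervals were not computed for these genes. fam43a had low counts with close values in M2 and M1, so its order is uncertain. The mean normalized count was 8475 for gadd45ga, against values from 118 for fam43a to 791 for LOC100690019 among the 5 genes. Among genes with a mean of at least 1000, the closest was btg1, a gene for an antiproliferative factor, with a difference of 0.31 and a mean of 9570 normalized counts. The likeness rests on 5 libraries and was the criterion of choice, so it is a description.

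Of 14 genes for partners of GADD45 proteins in stress kinase signalling, 11 had a normalized count averaging at least 10, where 32.2% of all genes had. The listed map2k3 was not matched by symbol. A mean of at least 100 was reached by 10. Of these 10 genes, 3 were highest in M4 (17.2% of all genes were), 2 were lowest in M3 (19.8%), 1 was lowest in M5 (21.1%) and 0 had the order of gadd45ga (0.749%). These places of the fish rest on only 10 genes, and whether they set the partners apart from the other genes was not tested. map2k4a, encoding a kinase that activates JNK and p38, had the highest mean TPM, 46.3, and map2k7, encoding a kinase for JNK, the lowest among those detected, 0.92. map3k4, whose product GADD45 proteins bind and activate, had 540 normalized counts in M4, 295 in M2, 290 in M1, 365 in M5 and 601 in M3, and was thus highest in M3, where gadd45ga was lowest. mapk8a, a JNK gene named after its values were seen, was the closest of the list to gadd45ga, with a difference of 0.41. It had 756 normalized counts in M4, 309 in M2, 398 in M1, 239 in M5 and 129 in M3, so that M4 was high and M3 low in both genes.

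Of 6 genes for cell-cycle partners, 3 had a normalized count averaging at least 10, where 32.2% of all genes had, and 1, pcna, of at least 100. pcna had a mean of 7.66 TPM and was lowest in M3, and its highest fish had 1.62 times the level of its lowest. The order of pcna, M2, M4, M1, M5 and M3, was that of gadd45ga with M2 and M4 exchanged. How many of all genes have this order was not counted, so the match does not set pcna apart. cdkn1a, which encodes p21, had the lowest mean TPM among those detected, 0.97. Its normalized counts of 76.1 in M4, 40.8 in M2, 16.5 in M1, 14.95 in M5 and 19.5 in M3 were highest in M4, where gadd45ga was also high. cdk1, the gene of the mitotic kinase, was the other detected gene, with 33.8 normalized counts in M4, 0.908 in M2, 1.65 in M1, 54.8 in M5 and 18.4 in M3. It was high in M5, where gadd45ga was low. Its values in M2 and M1 lay below what 3 counts correspond to there, 1.36 and 4.94 normalized counts, so M2 and M1 could not be placed in order.

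Of 10 symbols listed for DNA demethylation, 8 matched a gene, and tdg and smug1 were not matched by symbol. Of the 8 genes, 7 had a normalized count averaging at least 10, where 32.2% of all genes had. A mean of at least 100 was reached by 6. Of these 6, 0 were highest in M4 (17.2% of all genes were), 1 was lowest in M3 (19.8%) and 4 were lowest in M5 (21.1%). apobec2b, a muscle gene of the APOBEC deaminase family, had the highest mean TPM, 138, and tet3 the lowest among those detected, 0.92. tet1 and tet2, which like tet3 encode enzymes that oxidise 5-methylcytosine, averaged 227 ± 105 and 224 ± 44.1 normalized counts (SD, n = 5). tet1 was highest in M3, at 349 normalized counts, and lowest in M5, at 107.

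Among genes known in mammals as regulators of GADD45 transcription, 9 of 10 had a normalized count averaging at least 10, where 32.2% of all genes had. A mean of at least 100 was reached by 8. Of these 8, 2 were highest in M4 (17.2% of all genes were), 3 were lowest in M3 (19.8%), 2 were lowest in M5 (21.1%) and 0 had the fish order of gadd45ga (0.749%). atf4a, a transcription factor gene of the integrated stress response, had the highest mean TPM, 89.4, and was highest in M4. hdac4, encoding a histone deacetylase, had the lowest among those detected, 1.29, and was lowest in M3, at 119 normalized counts.

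The levels of cell type markers in the tissue were summed over 9 lists. The fast-fibre list summed to between 1930249 and 2501276 normalized counts, with the lowest sum in M3, where 4 of its 5 detected genes were lowest, compared with 19.8% of all genes; mylpfa, a fast myosin light chain gene, averaged 31088 TPM. The slow-fibre list summed to 1218 in M1, mainly from mybpc1, and to between 41.3 and 146 in the other fish, and tnni1b was at 0. The sums ranged from 17345 to 48209 for fibroblasts, from 744 to 1200 for endothelium, from 1390 to 1793 for white blood cells and from 1235 to 2056 for adipocytes. They ranged from 115 to 242 for red blood cells, where slc4a1b was at 0 and no haemoglobin gene was matched by symbol, from 47.8 to 111 for satellite cells and from 2.42 to 13.2 for liver. The adipocyte sum came from fabp4a alone and the liver sum from fga alone. Only 1 of 3 adipocyte symbols and 2 of 4 liver symbols matched a gene, so the other markers of these lists did not enter. The symbols matched were 5 of 6 for fast fibres, 5 of 7 for slow fibres and 2 of 6 for red blood cells. For endothelium and for white blood cells 3 of 4 matched. Of the 9 lists, 0 had the highest sum in M4, 2 had the lowest in M3 and 2 had the lowest in M5. Among single genes, 17.2% were highest in M4, 19.8% were lowest in M3 and 21.1% were lowest in M5. Whether the 9 lists differ from these shares was not tested. The liver sum in M4, 2.42, lay below what 3 counts correspond to there, 3.62 normalized counts. The part of the cell types in the order of gadd45ga was not tested, and in bulk tissue fewer cells of a type and less RNA per cell cannot be told apart.

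The surroundings of the paralogs were compared within 300 kb on each side, a window chosen after the values were seen. Around gadd45ga, 8 of 24 genes (33.3%) had a normalized count averaging at least 10 and 12 had no count. Around gadd45gb.1, 7 of 19 genes (36.8%) had a mean of at least 10 and 8 had no count. Over all genes, 13715 of 42563 (32.2%) had a mean of at least 10, so these 3 shares lay close together. No count was found for 17089 of the 42563 genes (40.1%).

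The nearest gene to the left of gadd45ga, LOC109204386 at 12.6 kb, and the nearest to the right, LOC112841892 at 125 kb, had no count. The nearest gene with a mean of at least 10 was creb3l3l, 38.4 kb to the left, with 118 ± 59.3 normalized counts (SD, n = 5). selenop, encoding a selenium transport protein, lay 70.2 kb to the left and was more abundant than gadd45ga in normalized counts per gene and per length, with a mean of 24607 ± 12004 normalized counts and 581 TPM. gadd45gb.1 had a closer neighbour on its right, nim1kb, a protein kinase gene on the minus strand whose end lay 0.823 kb away. nim1kb had 7, 7, 3, 2 and 0 raw counts in M1 to M5. On the left, LOC100706356 at 3.97 kb had no count.

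The same gene families stood beside both paralogs. The growth hormone receptor genes ghra, 76.3 kb to the left of gadd45ga, and ghrb, 16.8 kb to the right of gadd45gb.1, had counts in each fish. So did the complement C7 genes c7a and c7b, c7a with fewer than 10 normalized counts in M3, M4 and M5. ghra averaged 8.95 ± 3.55 TPM and ghrb 24.6 ± 7.63 TPM (SD, n = 5), and ghra was the higher in 0 of 5 fish. c7a averaged 0.356 ± 0.337 TPM and c7b 3.05 ± 1.52 TPM (SD, n = 5), and c7a was likewise the higher in 0 of 5 fish. The higher level of ghrb rests on the listed lengths, 6013 bases for ghra and 1855 bases for ghrb. Without division by length ghra averaged 914 ± 346 and ghrb 776 ± 224 normalized counts (SD, n = 5), and ghra was the higher in 4 of 5 fish. The lengths of c7a and c7b were close, at 2875 and 2852 bases. nim1ka and nim1kb averaged 1.18 and 4.07 normalized counts, and htr1aa and htr1ab, genes for serotonin receptors, had no count. In ghra, 947, 912, 1017, 369 and 1327 normalized counts in M1 to M5 placed M4 lowest, a fish where gadd45ga was high.

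**Figure D4:**
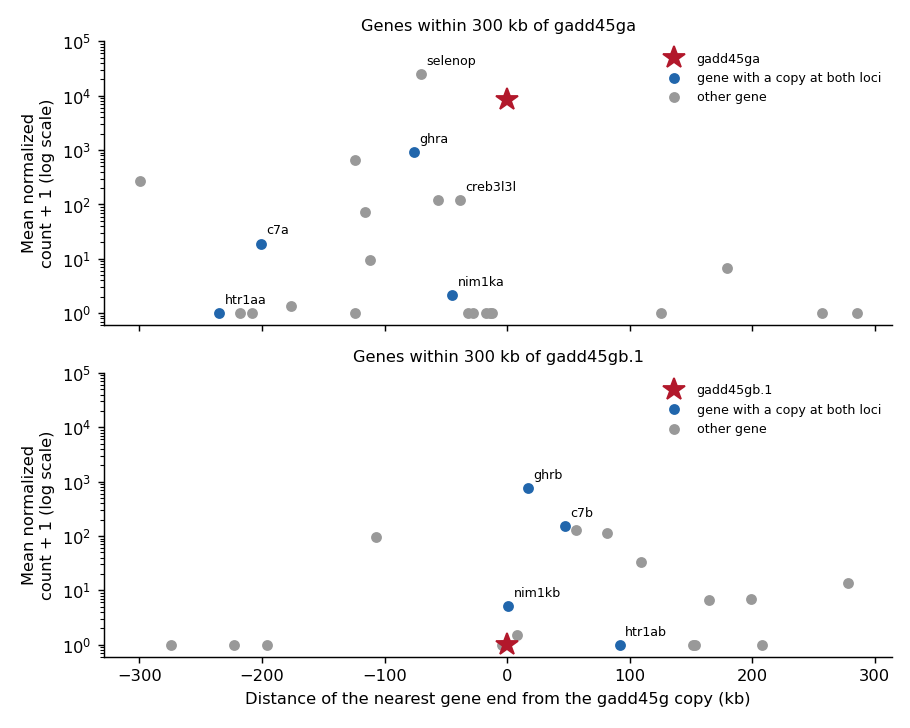
Mean normalized count + 1 (log axis, n = 5 fish) of the genes within 300 kb of gadd45ga (top) and gadd45gb.1 (bottom) against the distance of the nearest gene end in kb, with gene pairs found at both loci in blue. ghrb and c7b, 16.8 and 47.1 kb from gadd45gb.1, are at 776 and 151 normalized counts although gadd45gb.1 is at 0.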

How the data were processed

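RNA-Seq of fast muscle from 5 fish was used, 1 library each. The authors aligned trimmed reads with HISAT2 2.1.0 and counted fragments per listed feature with featureCounts of Subread, and the deposited values are raw counts. Per the methods of the study, primary alignments were counted and a fragment could match more than 1 feature; the strand setting is not given in the sources used here. Of the columns with sample values, 0 were left out.

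Features were assigned to genes by coordinates in the RefSeq gene table of O_niloticus_UMD_NMBU (79095 of 80416 matched 1 gene), and the most counted feature stood for each gene. Normalized counts used median-of-ratios factors from DESeq2 1.42.0 in R 4.3.3, which ranged from 0.607 to 2.20. TPM was computed from the deposited counts and lengths. Intervals of gadd45ga are exact two-sided 95% Poisson intervals, and the floor of 3 counts behind a 0 is the one-sided 95% limit. Alternatives were TMM factors of edgeR 4.0.16, the library total, other features for the size factors, libraries drawn down to the smallest, pseudocounts of 0.5 and 5 in place of 1, regularized logs, other floors and lengths, minimum means of 10 and 1000, and leaving out each fish. Dixon's ratio (critical value 0.71 for 5 values) served to find single outlying fish. Tables and plots were made in Python 3.11.15 with pandas 2.3.3, numpy 2.4.6, matplotlib 3.10.9 and scipy 1.17.1. Of the calculations, the size factors and the likeness of genes over the fish were tested on simulated data.

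The genes and lists were chosen with earlier results of these data known. Named were the members, genes whose symbol starts with gadd45, the highest and lowest detected gene of each list, the nearest gene on each side and the 5 genes most like gadd45ga. Other genes, the window around the paralogs, the gene pairs and the counts of highest and lowest fish were chosen after the values were seen. The other assays and tissues of the study were not analysed here.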

Additional observations from a re-analysis of the deposited data

Results flagged for a closer look

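Dixon's ratio was computed for 19 sets of 5 fish values, and 2 passed the critical value of 0.71, where chance passes about 1 set in 20. The total count of M2 was 90337019, against 38643609 in the next fish (ratio 0.81). gadd45ga had a CPM (counts scaled to the library total) of 291 in M2 and 295 in M4, so its high place in M2 was also seen relative to the total of that library. The normalized count of c7a, the complement gene near gadd45ga, was 49.4 in M1, against 18.2 in the next fish (ratio 0.71), which is just past the critical value. No value of gadd45ga, gadd45aa or gadd45ab passed.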

How the results depend on the processing

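A recalculated mean was taken as moved past 1 SD between fish, an order when any pair of fish changed places, and other values past 1.5 times. Of 49 recalculations, 41 stayed within these limits and 8 moved. The mean normalized count of gadd45ga was between 8402 and 8490 under 5 scalings, and between 7597 and 9774 with 1 fish left out. gadd45gb.1 had 0 counts throughout. The SD of the log2 values was 0.53 with regularized logs and between 0.54 (without M3) and 0.92 with 1 fish left out. The lowest per-length bound was 19834-fold with the floor over the 5 fish together, and between 1189-fold and 2127-fold (without M3) with 1 fish left out. With TMM factors 90% of the fish pairs kept their order, and between 83.3% (without M3) and 100% did so with 1 fish left out and the size factors recomputed; M2 and M4 were the pair that changed. Of the 5 genes most like gadd45ga, 2 were shared with a minimum mean of 10, and 0 with a minimum of 1000, which none of the 5 reaches. No paired analysis was possible because there is 1 group. Depth limits gadd45gb.1 alone: its limits were between 0.0332 and 0.112 CPM, and gadd45ga is limited by 1 library per fish. CPM here is relative to totals over features, so per assigned fragment these limits would be higher.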

Other observations

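Pairs of protein-coding genes whose symbols differ only by a final a or b were counted, a comparison chosen after the values were seen. Of 1489 such pairs, 211 had 1 copy with a normalized count averaging at least 1000, and in 7 of these (3.32%) the other copy had no count in any fish. With 1 copy at a mean of at least 10, this held for 92 of 1084 pairs (8.49%). The 7 pairs, each given with the counted copy first, were desma and desmb, sgk2b and sgk2a, cacng1a and cacng1b, ogdha and ogdhb, kcnj12b and kcnj12a, fabp4a and fabp4b, and ppp3r1a and ppp3r1b. desma, for the muscle intermediate filament desmin, had a mean of 88765 normalized counts, and the other counted copies had means between 1523 and 5029. gadd45ga and gadd45gb.1 are not among these pairs, as their symbols are spelled otherwise, and a shared symbol does not show that 2 genes arose by the genome duplication.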
